A study of Homo sapiens with 6 samples.

Results

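The genes described here encode an epithelial cell death machinery: the inflammatory caspases CASP1 and CASP4, the initiator caspases CASP8 and CASP10, the keratinocyte caspase CASP14, the pore-forming protein gasdermin D (GSDMD), the adaptor ASC (PYCARD) and the sensor NLRP1. They were taken by symbol from the deposited table, and all 8 were found among its 21462 genes. RNA was sequenced from control A431 cells (A431CT, labelled wild type) and from A431 cells in which DSG2 was knocked out by CRISPR/Cas9 (Dsg2KO), with 3 libraries per condition. Both were grown in the same serum-supplemented medium, and the labels name no treatment. A431 is a human cell line from an epidermoid carcinoma, and DSG2 encodes the desmosomal cadherin desmoglein-2. Whether the Dsg2KO cells are 1 clone or a pool is not given in the sources used here, so that a difference between the lines and an effect of DSG2 loss cannot be told apart.

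In the epidermis, NLRP1 is a main inflammasome sensor of keratinocytes. Once triggered, it gathers ASC, which recruits and activates caspase-1. Caspase-1 matures interleukin-1β and interleukin-18 and cuts gasdermin D, whose freed fragment opens pores in the plasma membrane (pyroptosis). Caspase-4 senses bacterial lipopolysaccharide in the cytosol and also cuts gasdermin D. Caspase-8 and caspase-10 act upstream of apoptosis, below death receptors such as FAS and the TRAIL receptors. Caspase-14 is not an apoptotic enzyme but takes part in filaggrin breakdown and cornification.

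The libraries held between 12845719 and 16255692 counts. DSG2 itself was at 323 ± 6.08 CPM (CPM is the count scaled to library size with TMM factors; mean ± SD, n = 3) in A431CT cells and at 51.9 ± 2.88 in Dsg2KO cells, lower in every library labelled as knockout. Of 10 keratinocyte markers, EGFR, TP63, KRT5 and CDH1 were abundant. KRT17, KRT6A and KRT16 were scarcer, at 12.9, 8.44 and 3.6 CPM in A431CT cells. KRT14 was at 2 counts or fewer in every library. Of the 9 tested, 3 were higher and 2 lower in Dsg2KO cells at an adjusted p-value under 0.05 (edgeR). Over all genes tested, 14.3% were higher and 15.3% lower by this rule. Among the markers that passed, KRT6A had a log2 fold change of -1.03 (adjusted p = 5.62e-04, edgeR) and CDH1 of 0.28 (adjusted p = 4.22e-05, edgeR). The 9 immune markers summed to between 777 and 812 CPM in A431CT cells and between 657 and 674 in Dsg2KO cells, nearly all of it from CSF1R and CD68. PTPRC, which marks all leukocytes, was at 8 counts or fewer, and CD3E, which marks T cells, was at 0. The 9 fibroblast and endothelial markers summed to between 8.68 and 11.5 CPM in A431CT cells and between 15.4 and 16.2 in Dsg2KO cells. Most of this came from CDH5, at 4.74 and 8.03 CPM, and PECAM1, at 4.09 and 5.95 CPM. The fibroblast markers PDGFRB, LUM, DCN, COL6A3 and THY1 had at most 4 counts in any library. The part of these differences in the values given below was not tested.

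The summed level of the machinery overlapped between the conditions. Over the 8 genes, the A431CT libraries lay between 249 and 257 CPM and the Dsg2KO libraries between 247 and 259. A gene was taken to have risen or fallen with an adjusted p-value under 0.05 (edgeR's quasi-likelihood test, Benjamini-Hochberg over the 12857 genes tested). By this rule NLRP1 fell and CASP10 rose, so 2 of the 8 genes changed, beside 29.6% of all genes tested, with 14.3% rising and 15.3% falling. With the study's further minimum of 0.5 on the log2 fold change, 0 of the 8 genes passed in edgeR and 0 in DESeq2, beside 6.03% of all genes tested in edgeR (2.99% higher and 3.03% lower). At an unadjusted p-value under 0.05 in edgeR there were 5 of the 8, beside 39.5% of all genes tested. The median log2 fold change of the 8 genes was -0.04, against -0.005 over all genes tested. In bulk RNA, fewer cells expressing a gene and less RNA per cell cannot be told apart.

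**Figure D1:**
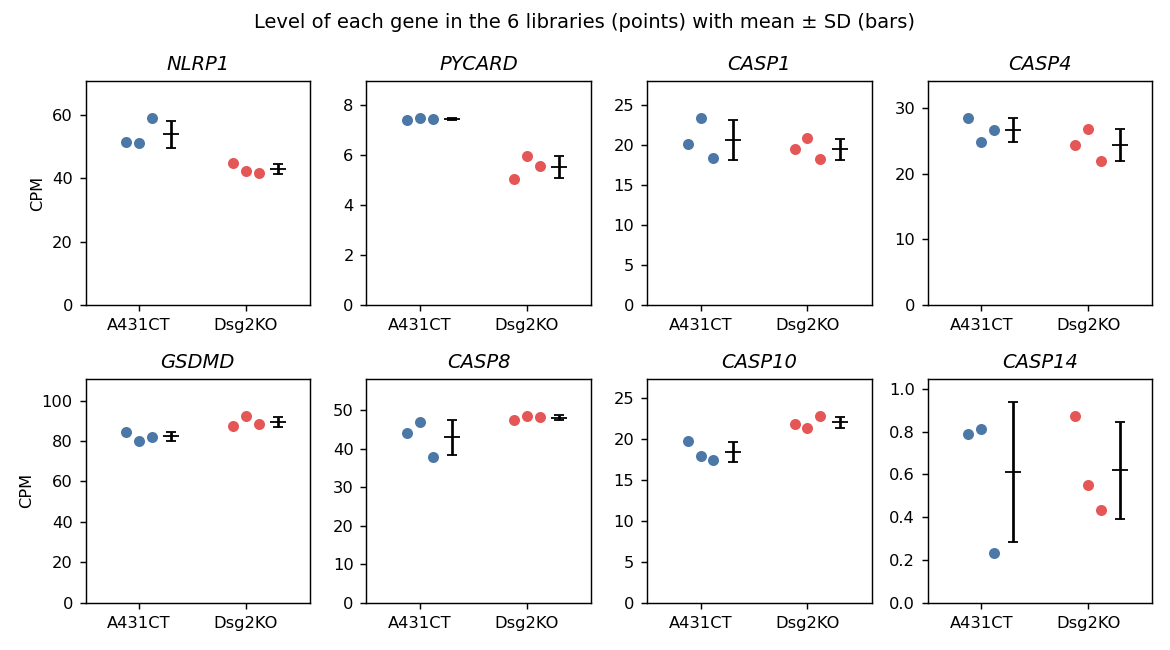
Level of each of the 8 genes in CPM (vertical axes, starting at 0 and scaled per gene) in the 3 A431CT libraries (blue points) and the 3 Dsg2KO libraries (red points), with the mean ± SD as black bars. The points of the 2 conditions do not overlap for NLRP1, PYCARD, GSDMD, CASP8 and CASP10, and they overlap for CASP1, CASP4 and CASP14.

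NLRP1, the sensor, fell, with the smallest p-value of the 8 genes. It lies on chromosome 17 of GRCh38 from 5499415 to 5619424 on the minus strand. Another annotated protein-coding gene and a pseudogene overlap it on the same strand and are not counted separately. Its level was 51.5, 51.1 and 58.9 CPM in the A431CT libraries and 44.8, 42.3 and 41.7 CPM in the Dsg2KO libraries. All 3 Dsg2KO libraries were below all 3 A431CT libraries, and A431CT replicate 3 stood above the other libraries. NLRP1 fell to 0.797 times its A431CT level. On the log2 scale it fell by 0.33 (SE 0.07, adjusted p = 0.00175 by edgeR). By p-value it was at rank 1376 of the genes tested. Over all alternatives run, leaving out each library included, the log2 fold change of NLRP1 lay between -0.36 and -0.26, with adjusted p-values up to 0.00978 (edgeR). The smallest change was found without A431CT replicate 3. Relative to the median of its 40 nearest tested genes, NLRP1 was at -0.32 (adjusted p = 0.00282, t test on the shifted fold change with edgeR's SE). The genes whose log2 CPM lay nearest to that of NLRP1 over the 6 libraries, each centred on its A431CT mean, were ZNHIT1, KLHL21 and TMX4, at root mean square distances of 0.0355, 0.0403 and 0.041 on the log2 scale.

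PYCARD, the adaptor that links sensors to caspase-1, had the largest difference in size among these genes but few counts. It lies on chromosome 16 from 31201486 to 31203450 on the minus strand, and the long non-coding gene PYCARD-AS1 overlaps it on the opposite strand. Whether the counting used strand is not given in the sources used here, so reads of the pair cannot be told apart. The same limit holds for GSDMD, with a long non-coding gene on the opposite strand, and for CASP10, with pseudogenes on the opposite strand. PYCARD was at 7.39, 7.45 and 7.44 CPM in A431CT cells and at 5.03, 5.93 and 5.56 CPM in Dsg2KO cells, so the conditions did not overlap. Its log2 fold change was -0.43 (standard error 0.16, 95% interval -0.76 to -0.09), and its adjusted p-value of 0.0514 from edgeR missed the threshold. The counts behind these values were between 75 and 101 per library. The SD of 0.0301 CPM between the A431CT libraries was smaller than the 0.754 CPM that counting alone would give, so the near-identity of these libraries is no measure of precision. With at least 10 counts required in every library, the adjusted p-value was 0.0433 (edgeR), the only alternative under 0.05. It was 0.111 in DESeq2 and lay between 0.0684 and 0.153 with 1 library left out (edgeR).

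CASP1 and CASP4, the proteases below the sensor and adaptor, did not differ detectably. They lie near each other on the minus strand of chromosome 11, CASP4 from 104942866 to 104969366 and CASP1 from 105025397 to 105035250, with CASP5 between them. CASP1 was at 20.2, 23.4 and 18.5 CPM in A431CT cells and at 19.5, 20.9 and 18.2 CPM in Dsg2KO cells. The libraries were interleaved, and the log2 fold change was -0.08 with a 95% interval from -0.29 to 0.13 (adjusted p = 0.58, edgeR). Its sign turned without A431CT replicate 2, to 0.02. CASP4 was at 28.4, 24.8 and 26.6 CPM in A431CT cells and at 24.3, 26.7 and 21.9 CPM in Dsg2KO cells. These also overlapped, and the log2 fold change was -0.13 with an interval from -0.31 to 0.06 (adjusted p = 0.30, edgeR). With 1 library left out, CASP4 lay between -0.20 (without Dsg2KO replicate 2) and -0.06 (without Dsg2KO replicate 3), and it was at -0.08 without A431CT replicate 1. For both genes the interval excludes a change of 0.5 on the log2 scale in either direction.

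The paralogs around them were scarce. CARD16, which resembles the recruitment domain of caspase-1 closely enough that reads may be shared with CASP1, was at 2.78 ± 0.267 CPM (SD, n = 3) and 2.36 ± 0.0687 CPM (adjusted p = 0.51, edgeR). CASP5 was at 1.00 ± 0.328 and 1.38 ± 0.403 CPM (adjusted p = 0.39, edgeR). CASP12 and CARD17 had no count in any library, and CARD18 had at most 4.

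GSDMD, the executioner cut by caspase-1 and caspase-4, was the most abundant of the 8 genes. It lies on chromosome 8 from 143553207 to 143563062. It was at 84.5, 80.2 and 82.0 CPM in A431CT cells and at 87.3, 92.3 and 88.5 CPM in Dsg2KO cells. Every Dsg2KO library was above every A431CT library, by little: the ratio of the means was 1.09 and the log2 fold change 0.12 (standard error 0.05, adjusted p = 0.0663, edgeR). Scaled by total counts only, it was at 0.14 with an adjusted p-value of 0.0302 (edgeR), the only alternative under 0.05. The adjusted p-value was 0.141 in DESeq2 and lay between 0.0817 and 0.207 with 1 library left out (edgeR). Among the 40 tested genes nearest to GSDMD the median was 0.15 on the log2 scale, with 30 above 0. Taken relative to this median, GSDMD was at -0.03 (adjusted p = 0.71), so that its sign turned. The median of the nearest genes was between -0.01 and 0.04 for each of the other 7 genes.

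**Figure D2:**
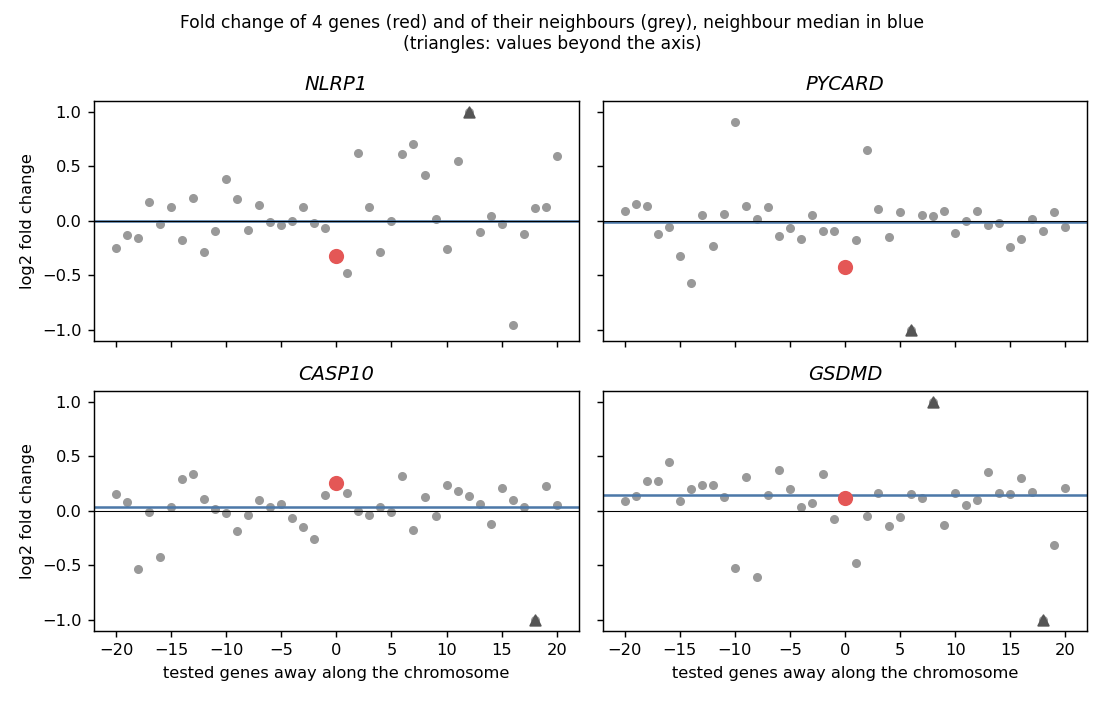
Log2 fold change of NLRP1, PYCARD, CASP10 and GSDMD (red) and of the 20 tested genes on each side of it (grey), in gene order along the chromosome, with the median of these neighbours as a blue line. GSDMD lies close to its neighbours' median of 0.15, while NLRP1 and PYCARD lie below all but 2 of their 40 neighbours and CASP10 above all but 3. Values beyond 1 in size are drawn as triangles at the edge.

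CASP8 and CASP10, the initiators below death receptors, are neighbours on the plus strand of chromosome 2, CASP10 from 201182872 to 201229428 and CASP8 from 201233443 to 201361836. CASP10 was at 19.8, 18.0 and 17.4 CPM in A431CT cells and at 21.9, 21.4 and 22.8 CPM in Dsg2KO cells. CASP10 rose by 0.26 on the log2 scale (SE 0.08, adjusted p = 0.0314 by edgeR), and each Dsg2KO library was above all A431CT libraries. This call did not hold in DESeq2 (adjusted p = 0.0923), relative to the neighbouring genes (0.0751), or in edgeR without A431CT replicate 2 (0.0814), A431CT replicate 3 (0.0982), Dsg2KO replicate 1 (0.0658) or Dsg2KO replicate 3 (0.101). The fold change itself stayed between 0.22 and 0.31 over these and the other alternatives.

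CASP8 was at 44.1, 46.9 and 37.9 CPM in A431CT cells and at 47.4, 48.5 and 48.3 CPM in Dsg2KO cells. The conditions did not overlap, but A431CT replicate 2 came within 1 CPM of the lowest Dsg2KO library, and A431CT replicate 3 was the lowest of all. The log2 fold change was 0.16 with a 95% interval from 0.01 to 0.31 (adjusted p = 0.11, edgeR). It was 0.23 without A431CT replicate 2 (adjusted p = 0.0298, edgeR) and 0.08 without A431CT replicate 3 (adjusted p = 0.41, edgeR). FLACC1, on the opposite strand within the CASP8 locus, had between 6 and 13 counts per library, against at least 489 for CASP8. CFLAR, the third gene of this cluster, encodes the caspase-8 inhibitor c-FLIP. It was at 21.4 ± 0.159 CPM (SD, n = 3) in A431CT cells and 23.7 ± 0.352 CPM in Dsg2KO cells (log2 fold change 0.15, adjusted p = 0.16, edgeR).

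CASP14, on chromosome 19 from 15049480 to 15058293, was barely expressed. The A431CT libraries held 10, 11 and 3 of its reads and the Dsg2KO libraries 13, 9 and 7, or 0.610 ± 0.327 and 0.619 ± 0.228 CPM (SD, n = 3). The log2 fold change was 0.004 with an interval from -1.13 to 1.14 (adjusted p = 1.00, edgeR), so that at this depth even a log2 difference of 1 was not detectable. Its sign turned without A431CT replicate 3 (-0.38) or Dsg2KO replicate 1 (-0.31).

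**Figure D3:**
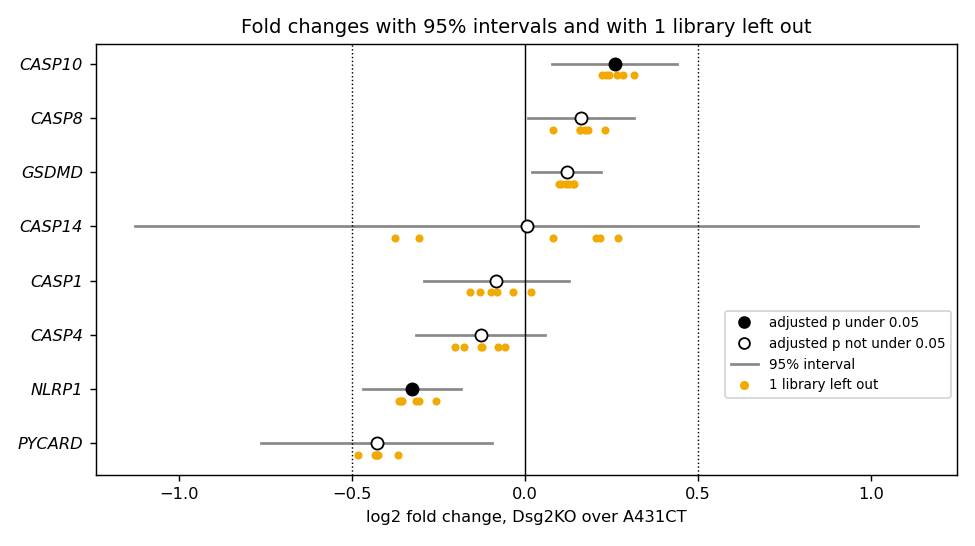
Log2 fold change of each of the 8 genes in Dsg2KO over A431CT cells (circles, filled where the adjusted p-value was under 0.05), with 95% intervals (grey lines) and the values with each of the 6 libraries left out (yellow points). Dotted lines mark 0.5 in size: no estimate lies beyond them, and the intervals of PYCARD and CASP14 cross them.

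Complete separation of the A431CT from the Dsg2KO libraries was seen for 5 of the 8 genes, with Dsg2KO higher for 3 and lower for 2, beside 42.6% of all genes tested (21.2% higher and 21.4% lower). A test of 3 against 3 libraries by exact permutation cannot give a p-value under 0.1, and these 5 genes reached that value.

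The order of the levels was read per kilobase, as RPKM (CPM divided by the length in kilobases), with lengths from GENCODE. GSDMD was the highest in A431CT cells with either length used, at 16.2 ± 0.419 RPKM (SD, n = 3) over all annotated exons and 47.7 ± 1.24 RPKM over the canonical transcript. CASP14 was the lowest, at 0.179 and 0.194 RPKM. The order between them depended on the length used. Over canonical transcripts CASP4 came next at 20.5 ± 1.37 RPKM, followed by CASP8 at 16.2 ± 1.73 RPKM, and their A431CT libraries did not overlap although their Dsg2KO libraries did. CASP1, PYCARD and NLRP1 followed at 10.4, 9.81 and 9.60 RPKM with overlapping libraries, and CASP10 was at 3.25 ± 0.219 RPKM. Over all exons CASP8 followed GSDMD, and CASP4 came after CASP8, CASP1 and PYCARD. The same genes were first and last in Dsg2KO cells.

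Related genes were taken from lists fixed by function. Among the other caspases, 6 of 7 were tested. Of these 1 fell, beside 15.3% of all genes tested. This was CASP9, the initiator activated by the apoptosome, at 11.0 ± 0.812 CPM (SD, n = 3) in A431CT cells and 7.56 ± 1.35 CPM in Dsg2KO cells (log2 fold change -0.54, adjusted p = 0.0119, edgeR). The 40 tested genes nearest to CASP9 on chromosome 1 had a median of -0.32, and relative to it CASP9 was at -0.22 (adjusted p = 0.32). It also lost the threshold without A431CT replicate 1 or Dsg2KO replicate 1. CASP6 had a log2 fold change of -0.20, CASP2 of 0.14 and CASP5 of 0.47, none past the threshold. CASP2 was at 0.06 without A431CT replicate 2, and CASP5 at 0.24 without A431CT replicate 2, 0.72 without A431CT replicate 3 and 0.28 without Dsg2KO replicate 3.

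Among the other gasdermins, 4 of 5 were tested and 2 fell, beside 15.3% of all genes tested. All 4 had log2 fold changes below 0, while 6312 of all 12857 genes tested were above 0. PJVK fell by 0.47 (adjusted p = 0.00789, edgeR) and GSDME fell by 0.32 on the log2 scale (adjusted p = 0.0410, edgeR). GSDME lost the threshold in 7 alternatives, among them DESeq2 and the removal of any Dsg2KO library, and it was at -0.16 without A431CT replicate 3 (adjusted p = 0.24, edgeR). GSDMB was at -0.29 and GSDMC at -0.06, neither past the threshold, and GSDMA had at most 4 counts. The neighbours of GSDMB had a median of -0.11. GSDMC lay between -0.34 and 0.19 with 1 library left out, so its sign was not stable.

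Of 15 tested inflammasome sensors and regulators, 3 rose and 1 fell, and the median log2 fold change was -0.04. The share that changed lay near the 29.6% of all genes tested. The substrates of caspase-1 went in opposite directions: IL1B fell from 22.5 ± 1.48 to 17.9 ± 1.44 CPM (log2 fold change -0.33, adjusted p = 0.0124, edgeR), and IL18 rose from 19.3 ± 1.23 to 24.2 ± 3.38 CPM (0.32, adjusted p = 0.0265, edgeR; SD, n = 3). IL1B lost the threshold without A431CT replicate 2 or Dsg2KO replicate 3, and IL18 without any of 4 libraries and relative to its neighbours. NEK7, a kinase that NLRP3 needs, rose by 0.19 (adjusted p = 0.0233, edgeR), while its neighbours had a median of 0.13 and relative to them its adjusted p-value was 0.54. NLRP3 itself had at most 3 counts per library and was not tested. NEK7 also lost the threshold in DESeq2 (adjusted p = 0.0624) and without A431CT replicate 2 or 3 or Dsg2KO replicate 3. The sensor NLRP6 rose by 1.32, from between 4 and 9 counts in A431CT libraries to between 16 and 27 in Dsg2KO libraries (adjusted p = 0.0273, edgeR), and lost the threshold without any of 4 libraries.

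Of 13 tested genes of the death receptor pathway, the 4 that changed all rose, with a median log2 fold change of 0.09 over the list. The share that changed in either direction was near the 29.6% of all genes tested. By direction, 4 rose and 0 fell, beside 14.3% of all genes tested that rose and 15.3% that fell. This difference in direction was not tested. At an unadjusted p-value under 0.05 in edgeR, TNFRSF10D at -0.20 and TRADD at -0.16 were also lower, and TNFRSF1A at 0.095 was also higher. The TRAIL receptors TNFRSF10A and TNFRSF10B, which recruit caspase-8 and caspase-10, rose by 0.36 and 0.35 (adjusted p = 6.53e-04 and 5.19e-05, edgeR). Their neighbours had medians of 0.17 and 0.18, and relative to these they were at 0.20 and 0.17 (adjusted p = 0.0433 and 0.0171). Their ligand TNFSF10 (TRAIL) rose by 0.33 (adjusted p = 0.0269, edgeR) and lost the threshold without any of 3 libraries and relative to its neighbours (adjusted p = 0.0616). The decoy receptor TNFRSF10C rose by 1.51 at between 3 and 32 counts per library (adjusted p = 0.0336, edgeR). It lost the threshold without any of 4 libraries and relative to its neighbours (adjusted p = 0.0691), and was at 2.51 without A431CT replicate 1.

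Of 22 tested genes of mitochondrial apoptosis and caspase inhibition, 3 rose and 4 fell, with a median log2 fold change of 0.005, beside the same 29.6% of all genes tested that changed. The BH3-only gene PMAIP1 (NOXA) rose from 41.0 ± 0.253 to 54.5 ± 5.07 CPM (SD, n = 3; log2 fold change 0.41, adjusted p = 3.90e-04, edgeR), and BOK rose by 0.29 (adjusted p = 0.00293, edgeR). The BH3-only gene BIK fell by 0.55 (adjusted p = 0.00243, edgeR) and BMF fell by 1.37 at between 7 and 30 counts (adjusted p = 0.0171, edgeR). BMF lost the threshold without A431CT replicate 3 or Dsg2KO replicate 2 or 3. APAF1 and DIABLO also fell, by 0.32 and 0.36 on the log2 scale (adjusted p = 0.00574 and 0.0138, edgeR). Their values under the alternatives are not given here. HRK rose by 0.74 (adjusted p = 0.0365, edgeR), and lost the threshold in DESeq2 and without any of 5 libraries.

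**Figure D4:**
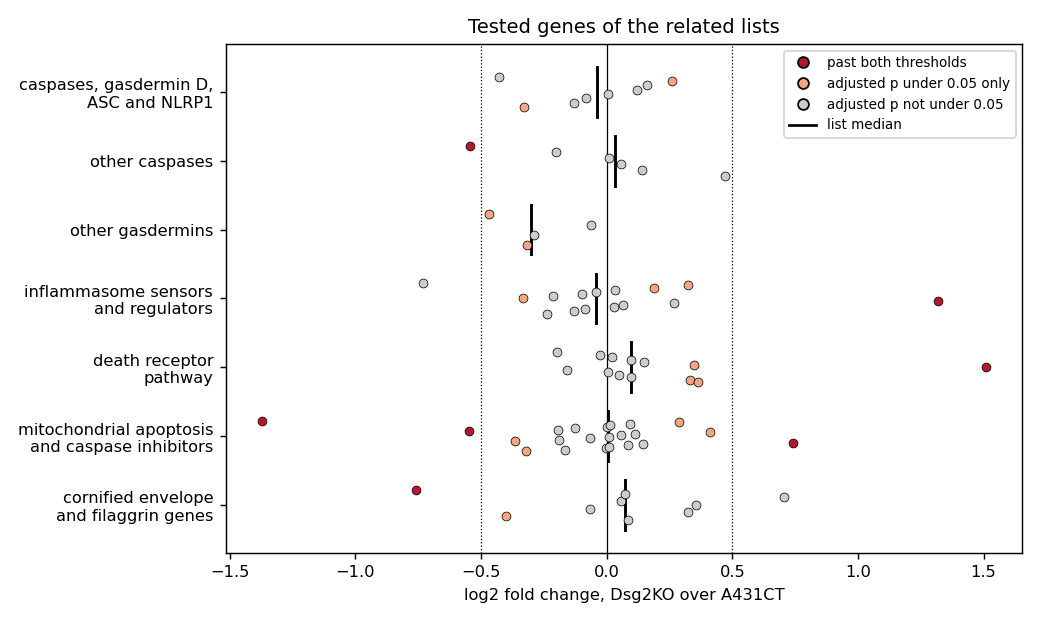
Log2 fold change in Dsg2KO over A431CT cells of every tested gene in 7 lists, coloured by whether it passed both thresholds (dark red), the adjusted p-value only (light red) or neither (grey), with each list's median as a black bar. The list medians lie between -0.30 for the other gasdermins and 0.09 for the death receptor pathway, and the 8 genes described here hold no point beyond the dotted lines at 0.5.

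CASP14 acts in cornification, and many genes listed for that step were silent or scarce too, but not all. KLK5 was at 118 ± 5.34 CPM in A431CT cells and 125 ± 6.17 CPM in Dsg2KO cells (SD, n = 3). BLMH was at 71.5 ± 2.58 and 75.2 ± 1.82 CPM, and neither passed the threshold. Of 25 cornified envelope and filaggrin genes, 9 were tested, and 8 had no count in any library, KRT1 and LOR (loricrin) among them. FLG, whose product caspase-14 helps to break down, was at 3.93 ± 1.25 and 4.89 ± 0.640 CPM (SD, n = 3; adjusted p = 0.34, edgeR). CSTA, a cysteine protease inhibitor of the cornified envelope, fell from 28.3 ± 1.34 to 16.7 ± 1.02 CPM (log2 fold change -0.76, adjusted p = 7.92e-06, edgeR), and KRT10 fell from 112 ± 3.93 to 85.2 ± 6.53 CPM (log2 fold change -0.40, adjusted p = 7.85e-05, edgeR). CDSN, which encodes corneodesmosin, was at 1.61 ± 0.104 and 2.62 ± 0.543 CPM (log2 fold change 0.71, adjusted p = 0.0706, edgeR).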

How the data were processed

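In CLC Genomics Workbench version 23, the authors removed adapters and low-quality reads, mapped the paired-end reads to GRCh38 and obtained a count for each gene. The deposited values are raw counts, without normalization; the annotation and strand setting are not given in the sources used here. All 6 columns were mapped to a condition and replicate by library name. Genes were tested in edgeR 4.0.16 (R 4.3.3) with TMM factors (0.990 to 1.01), filterByExpr (minimum count 10, minimum total count 15), quasi-likelihood fits on condition alone, and p-values adjusted by Benjamini-Hochberg over 12857 genes. Standard errors were derived from the fold change and F statistic. DESeq2 1.42.0 was an alternative. For local comparisons the median of the 20 tested genes on each side (GENCODE version 44) was subtracted. Their p-values came from a t test with edgeR's unchanged standard error, adjusted over 12240 genes with a position. The error of the median itself was not counted. Levels per length used all annotated exons, and the canonical transcript as a scale added after seeing the data.

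Replicate numbers did not pair the libraries: correlations of same-numbered residuals lay between -0.0027 and 0.0539. Chi-square values per degree of freedom between replicates were 2.64 to 4.14, so none was a repeat of another. The study describes its replicates as biological. The genes, lists and tests were chosen with earlier results of these data known. The genes named are the 8 genes, DSG2, other caspases and gasdermins (some genes are not reported here), the caspase-1 substrates IL1B and IL18, genomic neighbours and paralogs, and from each related list the 3 genes with the smallest p-values and any past both thresholds. FLACC1, NLRP3, TNFRSF10D, TNFRSF1A, TRADD, APAF1, DIABLO, FLG, KRT1, LOR, KLK5, BLMH and the markers were named after their values were seen.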

Additional observations from a re-analysis of the deposited data

How the results depend on the processing

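Of 102 values of the 8 genes' log2 fold changes under alternatives, 89 kept their direction and side of the adjusted p-value of 0.05, 6 (all CASP10) lost the threshold, 3 gained it and 4 turned in sign. NLRP1 kept both under all alternatives. The number past the adjusted p-value alone was 2, with 1 in DESeq2, 1 relative to neighbouring genes, 3 with total counts only, 3 with at least 10 counts in every library, and 1 to 2 with 1 library left out. With both thresholds it was 0, and 2 without the fold change minimum. Over all genes 775 passed both thresholds, 3802 without the fold change minimum and 250 with a minimum of 1. Of the 69 tested related genes 7 passed both thresholds, 3 higher and 4 lower. In DESeq2 the number was 4, with 0 higher and 4 lower. It was 20 without the minimum, 3 with a minimum of 1, and 3 to 5 with 1 library left out. GSDMD turned to -0.029 relative to its neighbours. With 1 library left out, CASP1 lay between -0.16 and 0.016, CASP14 between -0.38 and 0.27, and GSDMC between -0.34 and 0.19. A replicate block, although the numbers do not pair the libraries, gave 769 genes over all and changed no call among the 8 genes. CASP14 had too few counts for the filter of 10 counts in every library. Its depth allows no statement on changes under about 1 on the log2 scale.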
